A study of Homo sapiens with 9 samples.

Results

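The genes described here encode the nuclear subunits of respiratory complex I and the assembly factors that carry the NDUFAF prefix. NDUFA4, now placed in cytochrome c oxidase, and its paralogue NDUFA4L2 are included by their symbols. The cells were undifferentiated Caco-2 cells (uCaco-2), a human colon adenocarcinoma line kept in its proliferating state. The members were chosen by symbol, as NDUFA, NDUFB, NDUFC, NDUFS, NDUFV, NDUFAB or NDUFAF followed by a digit, without readthrough genes and pseudogenes. This rule took 47 of the 60591 symbols in the count table and left out 65 other rows with the NDUF prefix. Of the 47 members, 45 passed the expression filter and were tested, among 15944 genes in all. The 2 that did not pass, NDUFA4L2 and NDUFA7, are described by their counts.

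The cells received fresh medium (control), 300 μM CoCl2 or 5 μM OD, an oxyquinoline derivative, and were lysed after 24 h. All 3 groups carried 0.5% DMSO, and each had 3 biological replicates sequenced as stranded mRNA libraries. Both compounds are used as chemical activators of the hypoxia-inducible factor (HIF) pathway, and the comparisons ask how complex I transcripts respond to each of them. Each compound was given at a single dose and a single time to 1 cancer cell line.

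Total counts per library ranged from 15998136 to 24209427. Replicates of each group differed by more than counting noise (chi-square over genes divided by its degrees of freedom, 1.83 to 3.35), and all 9 libraries were treated as separate. edgeR scales libraries by TMM factors to allow for a few genes taking many counts. These factors lay between 0.770 and 0.795 in the CoCl2 libraries and between 1.11 and 1.15 in the other 6. All 6 epithelial markers looked at were detected in every group, although VIL1, which encodes villin, fell by 2.45 on the log2 scale with CoCl2 (SE 0.044, adjusted p = 1.24e-51 by edgeR). Of 8 markers of other cell types, PTPRC, COL1A2, DCN, ACTA2 and CD3E stayed near 0, while COL1A1, PECAM1 and CD14 passed the expression filter. With CoCl2 these 3 had log2 fold changes of -0.49, -0.80 and 0.065, and with OD they had 0.59, -0.034 and -1.08. The 8 together took 0.00224% to 0.00271% of control counts, 0.00124% to 0.00136% with CoCl2 and 0.00299% to 0.00307% with OD.

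Complex I passes electrons from NADH to ubiquinone and pumps protons across the inner mitochondrial membrane. Its matrix arm holds the N module, which oxidizes NADH, and the Q module, which reduces ubiquinone. The proximal and distal parts of its membrane arm are built around subunits encoded in mitochondrial DNA, and assembly factors join the modules without remaining in the finished complex. In colon epithelium, as in other tissues, hypoxia is known to turn metabolism from respiration towards glycolysis, and HIF-1 is known to induce NDUFA4L2, whose product lowers complex I activity. NDUFA4, the paralogue of NDUFA4L2, was first described with complex I and is now placed in cytochrome c oxidase.

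In control cells, the members covered a wide range of levels per length of the canonical transcript. NDUFS5, a small accessory subunit of the membrane arm, stood highest at 227 CPM per kb, where CPM are counts brought to a common library total with TMM factors. NDUFA1 followed at 192, NDUFV1 at 169 and NDUFS6 at 166 CPM per kb. Among the tested members, NDUFAF5 at 3.38 and NDUFV2 at 2.33 CPM per kb were the lowest, and the untested NDUFA7 and NDUFA4L2 had 0.391 and 0.132. This order depends on the annotated length, as NDUFAF5, with 5449 bases, had 18.4 CPM and stood above NDUFA13 at 3.94 CPM. NDUFV2, at 2.00 CPM, was the lowest tested member without division by length as well. NDUFV2 thus stood far below NDUFV1, its partner in the flavoprotein part of the N module, although both proteins occur in equal number in the complex. Reads on NDUFV2 are uncertain, since 28.4% of its exon bases are shared with a lncRNA on the same strand and the handling of reads that fit several genes is not given in the sources used here. Such sharing also touches NDUFB8 (33.8%), NDUFA7 (32.5%), NDUFA13 (21.0%), NDUFC2 (18.6%), NDUFS3 (16.0%) and NDUFC1 (12.02%), and it was smaller for the other members.

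As a share of raw counts, the members took 0.330%, 0.311% and 0.319% of the 3 control libraries. With CoCl2 the shares were 0.229%, 0.229% and 0.234%, and with OD they were 0.270%, 0.266% and 0.268%. The 3 groups did not overlap, and both treatments lay below control. On the log2 scale the mean share changed by -0.47 with CoCl2 and by -0.25 with OD, beside medians over all tested genes of -0.55 and 0.029 when libraries were scaled by their totals alone. The summed share with CoCl2 thus changed no more than the median gene did, but this sum includes NDUFA4, whose counts rose. When NDUFA4 was left out, the mean share fell from 0.295% (control) to 0.192% (CoCl2). With library totals as the only scaling, the median member changed by -0.66 with CoCl2, further than the median gene at -0.55. A difference between these medians was not tested. In bulk RNA, fewer cells with these transcripts and less of them per cell cannot be told apart. The make-up of this share differed as well. The N module took 29.5% to 29.9% of the members' counts in control cells, 28.9% to 29.1% with OD and 19.5% to 20.4% with CoCl2. NDUFA4 alone took 7.22% to 7.99% in control cells, 9.43% to 9.66% with OD and 16.0% to 17.1% with CoCl2. The distal membrane arm held 23.5% to 23.8% in control cells and 26.6% to 27.0% with CoCl2, and its range with OD, 23.5% to 23.7%, overlapped that of control cells. The NDUFAF factors took 6.37% to 6.66% in control cells, 4.60% to 4.64% with CoCl2 and 5.08% to 5.26% with OD. The Q module and the proximal arm stayed between 15.5% and 17.1% in every library. These shares are parts of the same whole, so a rise of NDUFA4 lowers the others, and genes with many counts weigh most. From control cells to CoCl2, NDUFB9 of the distal arm went from 140 to 331 CPM per kb. NDUFV1 of the N module went from 169 to 52.3 CPM per kb. The median log2 fold change with CoCl2, with TMM factors, was -0.092 in the distal arm and -0.22 in the N module.

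**Figure D1:**
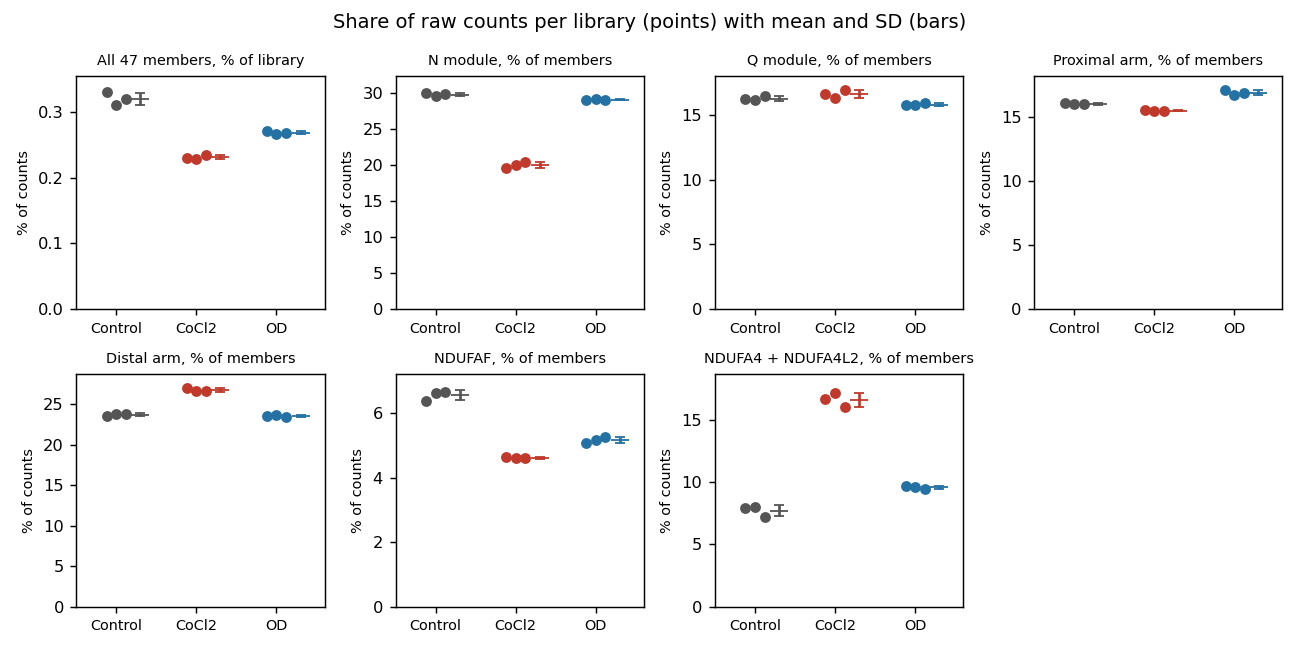
Share of raw counts in percent (vertical axis) for control, CoCl2 and OD libraries, with 1 point per library and the mean and SD of 3 libraries beside them. The first panel gives all 47 members as a share of the library, at about 0.23% with CoCl2 and 0.32% in control cells, and the others give each group as a share of the members' counts, where the N module is lowest and NDUFA4 with NDUFA4L2 highest with CoCl2.

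With CoCl2, complex I transcripts moved in both directions. Genes were called differentially expressed at an adjusted p under 0.05 in edgeR's quasi-likelihood test and a fitted change of more than 1 on the log2 scale in either direction. By this rule 4 members were upregulated, NDUFV2, NDUFB9, NDUFA4 and NDUFA13, against a background of 19.9% of all tested genes, and the 4 are 8.89% of the 45. Another 6 were downregulated, NDUFAF3, NDUFB1, NDUFV1, NDUFV3, NDUFS7 and NDUFAF6, which is 13.3% against 23.4% of all genes. By the adjusted p alone, 11 members were higher (24.4%, against 40.4% of all genes) and 24 were lower (53.3%, against 42.8%). The median log2 fold change of the members was -0.15, beside -0.049 over all tested genes, and the values ranged from -2.44 to 1.61. The median size of the change was 0.37 for the members and 0.86 for all genes.

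The balance between these directions depended on the scaling. When libraries were scaled by their totals alone, the median of all genes with CoCl2 moved to -0.55, the members' median moved to -0.66, and 40 members were lower and 4 higher by the adjusted p. Of all 15944 tested genes, 9398 were then lower and 4134 higher by the adjusted p. Counts under this scaling for single modules and other lists, given below, include this shift of all genes. Of the 11 members that were higher with TMM factors, 6 were then lower, among them NDUFS3, NDUFS5, NDUFB7, NDUFB11 and NDUFAF5. None of the 10 called members changed sign, but NDUFB9 (0.74), NDUFA4 (0.63) and NDUFA13 (0.50) dropped below the fold threshold. With RLE factors, 16 members were higher and 22 lower, beside 6694 and 6573 of all tested genes, and the same 10 were called.

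**Figure D2:**
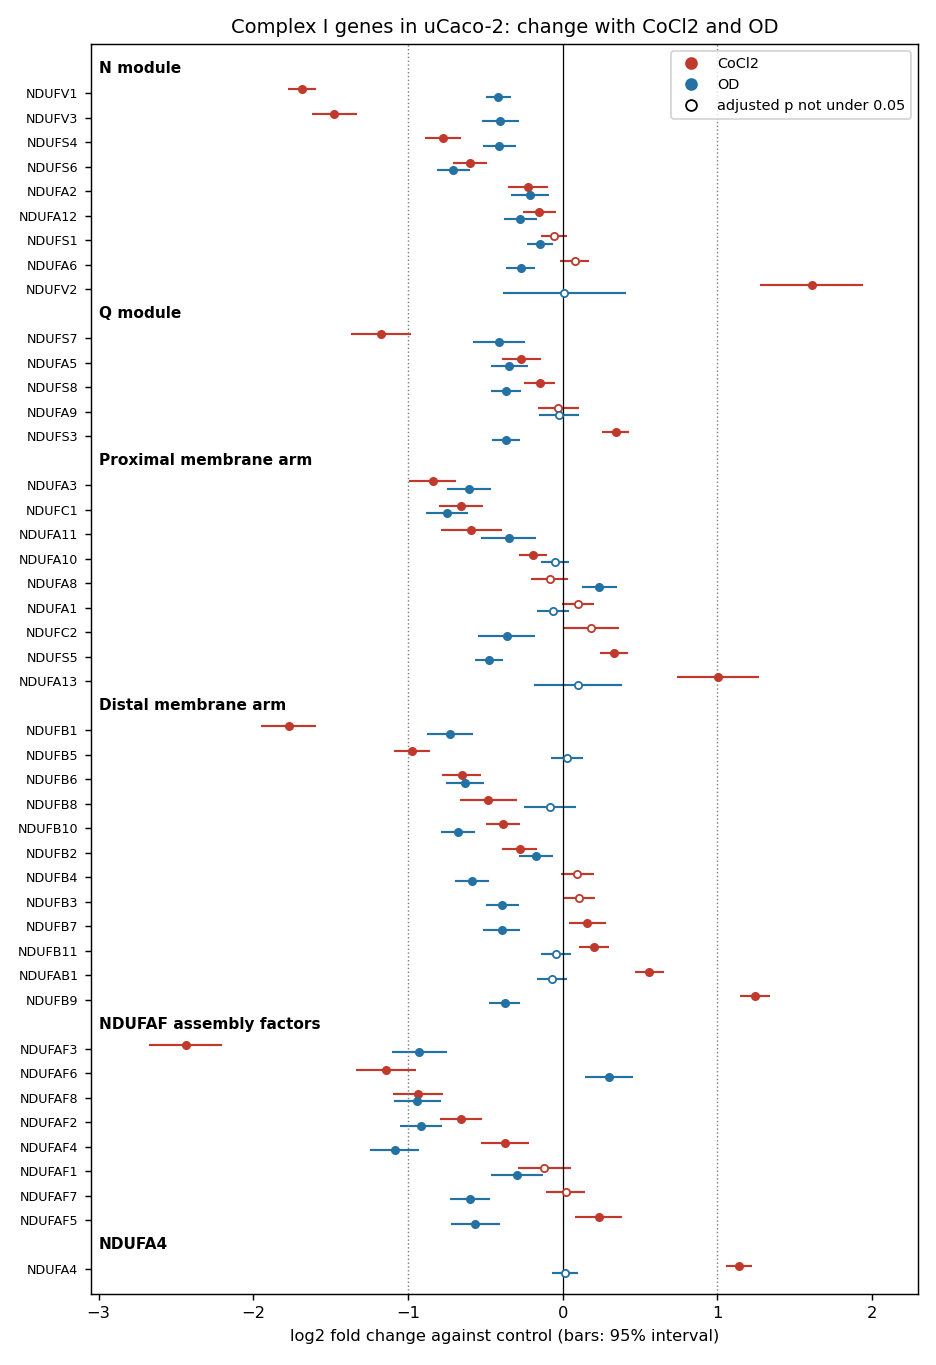
Log2 fold change against control (horizontal axis) of 44 of the 45 tested members with CoCl2 (red) and OD (blue), grouped by their place in the complex, with bars for the 95% interval, open circles where the adjusted p is not under 0.05, and dotted lines at a log2 fold change of 1 in size. With CoCl2 the points spread from -2.44 to 1.61, and with OD they lie between -1.09 and 0.30, most of them left of 0; with CoCl2 the sign of 13 members changes between the scalings tried.

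The following stretches of 30 bases upstream of the RefSeq starts (GRCh38.p14) are shown for members called with CoCl2 whose transcript start is listed, because they hold the core letters of the element that HIF binds, ACGTG or GCGTG on either strand. The capitals mark these letters, read in the direction of transcription, where CACGT and CACGC are the same letters on the other strand, and the match farthest upstream is shown for each gene.
NDUFV1, chr11:67606887-67606916, + strand: gctggcgtcgggcGCGTGacgtctttcctg
NDUFV2, chr18:9102617-9102646, + strand: ggcgaagggagcgGCGTGccgtccgggtcg
NDUFV3, chr21:42893101-42893130, + strand: gcaccagccggtgACGTGtccctCACGCtg
NDUFS7, chr19:1383707-1383736, + strand: gacccgcggccccCACGTGcgcactccgat
NDUFB1, chr14:92121877-92121906, - strand: aggcgacggcggtCACGCctgCACGCctcg
NDUFA13, chr19:19515997-19516026, + strand: aaccaaggcgagtCACGCcctgtctgggca
The marked letters of these 6 genes begin 36, 69, 195, 187, 187 and 215 bases before the start, in the order shown. Upstream refers to the listed RefSeq start only. The stretches of NDUFV1, NDUFV3, NDUFS7, NDUFB1 and NDUFA13 lie inside the GENCODE spans given below, and that of NDUFV2 crosses the start of its span. Upregulated and downregulated members both carry them: NDUFV1 and NDUFV2 each hold GCGTG on the coding strand, and the former fell while the latter rose. In NDUFS7 the letters of both strands overlap as CACGTG. Within 250 bases before to 50 after the start, the letters occurred in 25 of the 39 members with a listed start (64.1%) and in 48.4% of the 27305 starts in the table. In NDUFAF3 they were not found upstream of the start. NDUFA4, NDUFAF6, NDUFB5 and NDUFB9 were not matched.

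Counts on NDUFV1 and NDUFV2 of the N module moved in opposite directions with CoCl2, although reads on NDUFV2 are uncertain, as described above. NDUFV1 (chr11:67605653-67612554 on GRCh38) encodes the subunit that binds NADH and the flavin. Its level was 274, 250 and 266 CPM in control cells, 84.0, 76.8 and 84.0 CPM with CoCl2, and 202, 196 and 194 CPM with OD. The groups did not overlap, and the log2 fold change with CoCl2 was -1.69 (SE 0.046, adjusted p = 1.11e-41 by edgeR), a level 3.22-fold lower. NDUFV2 (chr18:9102630-9134345), whose product carries an iron-sulfur cluster next to the flavin, had 1.99, 2.21 and 1.79 CPM in control cells, 7.71, 5.80 and 4.98 CPM with CoCl2, and 2.04, 2.00 and 2.02 CPM with OD. Every CoCl2 library lay above every other library, the log2 fold change was 1.61 (SE 0.169, adjusted p = 2.96e-13 by edgeR), and the values rest on 32 to 45 counts per control library. For every 100 counts on NDUFV1, NDUFV2 had 0.674 to 0.882 counts in control cells, 5.93 to 9.19 with CoCl2 and 1.01 to 1.04 with OD.

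NDUFV3 (chr21:42879644-42913304), an accessory subunit beside this pair, had 37.9, 37.7 and 36.4 CPM in control cells, 13.5, 12.8 and 13.8 CPM with CoCl2, and 29.0, 28.3 and 27.4 CPM with OD. It fell with CoCl2 by 1.48 on the log2 scale (SE 0.073, adjusted p = 7.31e-28 by edgeR), with no overlap between groups. The other tested members of the N module were called in no comparison. Among them, NDUFS4 and NDUFS6, accessory subunits of the arm, had log2 fold changes with CoCl2 of -0.78 and -0.60, both with an adjusted p under 0.05. NDUFA2 at -0.22 and NDUFA12 at -0.15 were also lower by the adjusted p. NDUFS1, the large subunit that carries several iron-sulfur clusters, had -0.057 and NDUFA6 had 0.079, and neither passed. In sum 1 of the 9 tested members of the N module was higher with CoCl2 (11.1%, against 40.4% of all genes). Another 6 were lower (66.7%, against 42.8%), and the median log2 fold change of the module was -0.22. With library size alone 1 was higher and 8 lower.

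In the Q module, NDUFS7 (chr19:1383527-1395589), which encodes the subunit with the iron-sulfur cluster nearest to ubiquinone, had 17.7, 15.4 and 18.1 CPM in control cells, 8.40, 6.81 and 7.29 CPM with CoCl2, and 13.9, 12.6 and 11.8 CPM with OD. It fell with CoCl2 by 1.18 on the log2 scale (SE 0.10, adjusted p = 8.18e-17 by edgeR), and the groups did not overlap. Antisense lncRNAs share 51.4% of its exon bases, and whether the counting used strand is not given in the sources used here. The core subunit NDUFS3 had a log2 fold change of 0.34 with TMM factors and of -0.16 with library size alone, so its direction is not settled. NDUFS8, another iron-sulfur subunit, had -0.15, NDUFA5 had -0.27, and NDUFA9, which lies near the ubiquinone site, had -0.027 (adjusted p = 0.714 by edgeR). Of the 6 members of the Q module, 2 were higher with CoCl2 (33.3%, against 40.4% of all genes) and 3 lower (50%, against 42.8%). The median of the module was -0.088, and with library size alone all 6 were lower.

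In the proximal membrane arm, NDUFA13 (chr19:19515736-19529054), also known as GRIM-19, was at the threshold. It had 4.04, 4.27 and 3.53 CPM in control cells, 6.78, 8.51 and 8.55 CPM with CoCl2, and 4.81, 3.60 and 4.31 CPM with OD. The CoCl2 libraries lay above all others, and the log2 fold change was 1.00 (SE 0.135, adjusted p = 7.66e-10 by edgeR), with values of 0.93 to 1.11 when single libraries were left out. The call was lost in 6 of these 9 fits, with library size alone, on the 6 libraries of this comparison alone, under both other count filters, and by glmTreat, which tests against the fold threshold itself. NDUFA3, NDUFC1 and NDUFA11, small accessory subunits, had -0.84, -0.66 and -0.59, each with an adjusted p under 0.05. NDUFS5, a subunit exposed to the intermembrane space, had 0.33 with TMM factors and -0.17 with library size alone. In this arm 2 of 9 members were higher with CoCl2 (22.2%, against 40.4% of all genes) and 4 lower (44.4%, against 42.8%). The median of the arm was -0.084, and with library size alone 1 was higher and 8 lower.

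The distal membrane arm held both a strong fall and a strong rise with CoCl2. NDUFB1 (chr14:92116122-92121917), a small accessory subunit, had 26.4, 29.2 and 26.4 CPM in control cells, 8.52, 8.13 and 7.50 CPM with CoCl2, and 18.1, 14.9 and 16.6 CPM with OD. Its log2 fold change with CoCl2 was -1.77 (SE 0.091, adjusted p = 3.86e-27 by edgeR), which is 3.41-fold lower, and the groups did not overlap. NDUFB9 (chr8:124539101-124580648), an accessory subunit of the same arm, had 105, 91.6 and 93.5 CPM in control cells, 243, 213 and 231 CPM with CoCl2, and 77.4, 72.1 and 74.4 CPM with OD. Its log2 fold change with CoCl2 was 1.24 (SE 0.049, adjusted p = 9.34e-32 by edgeR), and all CoCl2 libraries lay above all others. Relative to NDUFB10, another subunit of this arm, NDUFB9 had 154 to 176 counts per 100 in control cells, 196 to 211 with OD and 478 to 561 with CoCl2.

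NDUFB5 (chr3:179604690-179627647), a further accessory subunit, had 55.5, 56.5 and 54.1 CPM in control cells, 26.9, 28.8 and 28.9 CPM with CoCl2, and 56.5, 54.8 and 58.5 CPM with OD. Its log2 fold change with CoCl2 was -0.97 (SE 0.060, adjusted p = 3.97e-23 by edgeR), just outside the fold threshold, while NDUFA13 at 1.00 was just inside. NDUFAB1, the mitochondrial acyl carrier protein, had 74.1, 75.3 and 75.3 CPM in control cells, 107, 113 and 112 CPM with CoCl2, and 70.9, 74.8 and 68.6 CPM with OD, a log2 fold change with CoCl2 of 0.56 (SE 0.049, adjusted p = 2.32e-16 by edgeR) that shrank to 0.055 with library size alone. NDUFB6, NDUFB8, NDUFB10 and NDUFB2 were lower by the adjusted p, from -0.65 to -0.28. NDUFB3 and NDUFB4 had 0.10 and 0.094 and did not pass. Over the 12 members of this arm, 4 were higher with CoCl2 (33.3%, against 40.4% of all genes) and 6 lower (50%, against 42.8%). The median of the arm was -0.092, and with library size alone 1 was higher and 10 lower.

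**Figure D3:**
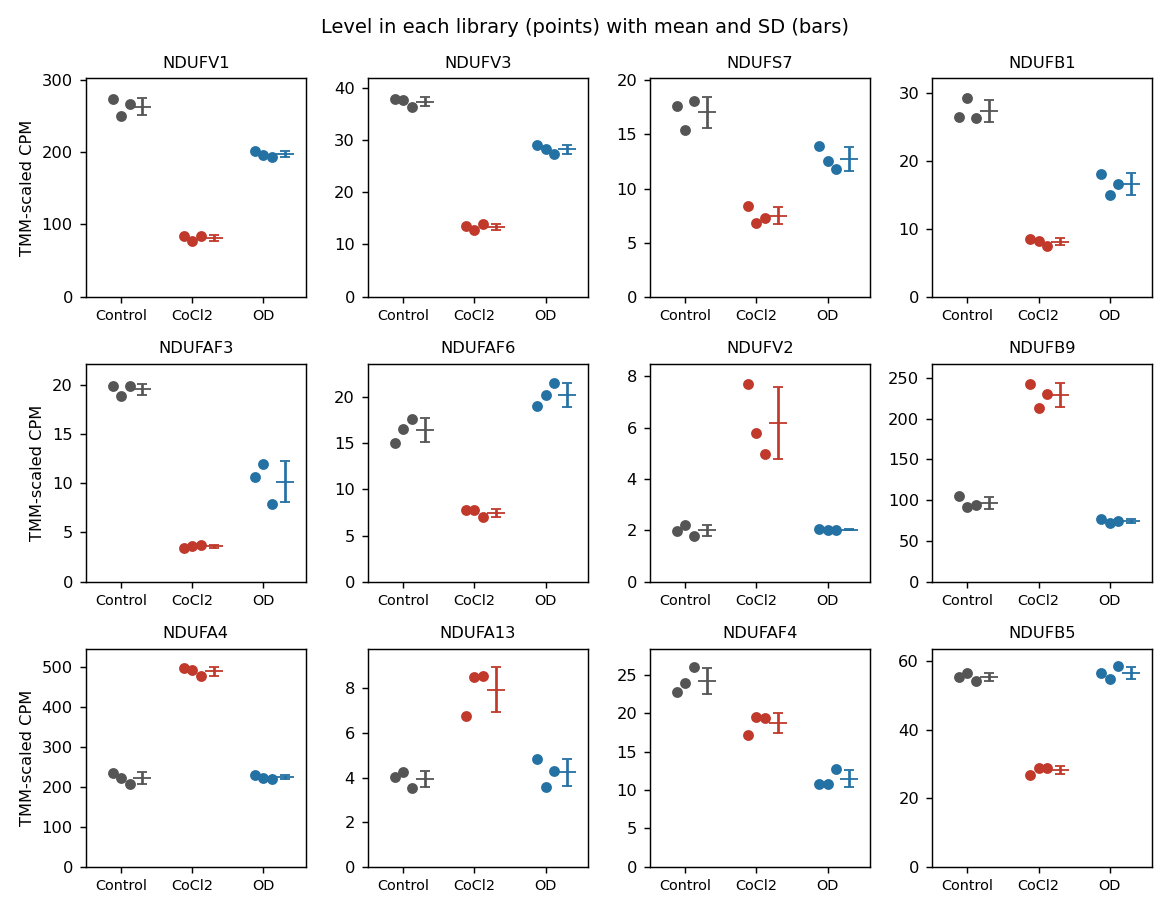
TMM-scaled CPM (vertical axis, from 0) of the 12 members called in at least 1 comparison, with 1 point per library and the mean and SD of 3 libraries. NDUFV1, NDUFV3, NDUFS7, NDUFB1, NDUFAF3, NDUFAF6 and NDUFB5 are lowest with CoCl2, NDUFV2, NDUFB9, NDUFA4 and NDUFA13 are highest with CoCl2, and NDUFAF4 is lowest with OD.

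Among the NDUFAF assembly factors, NDUFAF3 (chr3:49020459-49023495) showed the largest change of the tested members with CoCl2. NDUFAF3 works with NDUFAF4 early in the building of the matrix arm. It had 19.9, 18.9 and 19.9 CPM in control cells, 3.42, 3.64 and 3.72 CPM with CoCl2, and 10.7, 11.98 and 7.88 CPM with OD. The groups did not overlap, and the log2 fold change with CoCl2 was -2.44 (SE 0.120, adjusted p = 2.14e-27 by edgeR), a level 5.42-fold lower. NDUFAF6 (chr8:94895533-95116455), which is needed for the mitochondrially encoded subunit ND1, had 15.1, 16.5 and 17.7 CPM in control cells, 7.71, 7.74 and 6.97 CPM with CoCl2, and 19.0, 20.2 and 21.6 CPM with OD. It fell with CoCl2 by 1.14 on the log2 scale (SE 0.098, adjusted p = 1.35e-16 by edgeR), and its OD libraries lay above its control libraries. NDUFAF8, NDUFAF2 and NDUFAF4 were lower by the adjusted p, with -0.94, -0.66 and -0.37. NDUFAF5, which modifies an arginine of NDUFS7, had 0.23 with TMM factors and -0.27 with library size alone. NDUFAF1, a part of the assembly complex of the membrane arm, had -0.12, and NDUFAF7, a methyltransferase, had 0.021, and neither passed. Of the 8 factors, 1 was higher with CoCl2 (12.5%, against 40.4% of all genes) and 5 lower (62.5%, against 42.8%). The median of the 8 was -0.52, and with library size alone all 8 were lower.

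NDUFA4 and NDUFA4L2 differed in level, and a difference between their responses was not tested. NDUFA4 (chr7:10931943-10940153) had 236, 223 and 207 CPM in control cells, 497, 493 and 476 CPM with CoCl2, and 230, 223 and 220 CPM with OD. The CoCl2 libraries stood apart from all others, with a log2 fold change of 1.14 (SE 0.042, adjusted p = 1.41e-34 by edgeR), and the change with OD was 0.016 (95% interval -0.067 to 0.099, adjusted p = 0.750 by edgeR). NDUFA4L2 (chr12:57234903-57240715) had 2, 2 and 3 counts in the control libraries, 2, 5 and 2 with CoCl2, and 8, 7 and 12 with OD. In CPM the OD libraries (0.31 to 0.64) lay above the control libraries (0.098 to 0.168) and overlapped the CoCl2 libraries (0.10 to 0.39). The ratio of the scaled sums of OD to control was 3.46, with an exact binomial 95% interval of 1.47 to 9.41 that covers counting error only. The same ratio of CoCl2 to control was 1.52, with an interval of 0.504 to 4.80. An exact two-sided permutation test gave p = 0.1 for OD against control, the smallest that 3 libraries against 3 allow, p = 0.6 for CoCl2 against control and p = 0.3 for CoCl2 against OD. When genes of low counts were kept in the edgeR fit, the log2 fold change with OD was 1.74 (SE 0.608, adjusted p = 0.0161).

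NDUFA7, an accessory subunit of the N module, had 3, 6 and 4 counts in control libraries, 7, 6 and 10 with CoCl2, and 4, 5 and 7 with OD. The ratio of CoCl2 to control was 2.09 (exact binomial 95% interval 1.02 to 4.49, counting error only), and no difference could be called in the edgeR fit without a count filter (adjusted p = 0.147). Its exons overlap those of another gene, so its level is uncertain.

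With OD, nearly all changes of complex I transcripts were small and most were downwards. By both thresholds no member was upregulated (background 9.09% of tested genes) and 1, NDUFAF4, was downregulated (2.22%, background 4.16%). By edgeR's adjusted p alone, 2 members were higher (4.44%, against 32.3% of all genes) and 33 were lower (73.3%, against 33.3%). The median log2 fold change was -0.37 for the members and -0.010 for all genes, and the median size of the change was 0.37 for the members and 0.38 for all genes. This direction held with the other scalings: with RLE factors or library size alone, 2 members were again higher and 33 lower, and the only member whose sign changed was NDUFA9, which did not pass the test.

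NDUFAF4 (chr6:96889315-96897891), the partner of NDUFAF3, had 22.8, 23.9 and 26.0 CPM in control cells, 17.2, 19.5 and 19.5 CPM with CoCl2, and 10.9, 10.8 and 12.7 CPM with OD. The 3 groups did not overlap and the OD libraries were lowest, with a log2 fold change of -1.09 (SE 0.082, adjusted p = 1.31e-18 by edgeR). NDUFAF8, which acts with NDUFAF5, had 23.4, 24.6 and 24.2 CPM in control cells, 13.2, 11.5 and 12.8 CPM with CoCl2, and 12.6, 11.8 and 13.3 CPM with OD. Both treatments lay below control to a similar extent, with log2 fold changes of -0.94 with OD (SE 0.078, adjusted p = 7.78e-17 by edgeR) and -0.94 with CoCl2. NDUFAF3 (-0.93, SE 0.092, adjusted p = 1.31e-13 by edgeR) fell with OD as well, and without the second OD library it would pass the fold threshold at -1.06.

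NDUFAF2, a chaperone that assists the joining of the N module, had 37.1, 33.6 and 35.2 CPM in control cells, 23.9, 20.7 and 22.2 CPM with CoCl2, and 18.3, 18.2 and 19.6 CPM with OD. All 3 groups were apart, and the log2 fold change with OD was -0.92 (SE 0.068, adjusted p = 9.99e-19 by edgeR). In total 7 of the 8 NDUFAF factors were lower with OD (87.5%, against 33.3% of all genes), with a median of -0.76. With RLE factors or library size alone 7 were again lower. The exception was NDUFAF6, higher by 0.30 (SE 0.078, adjusted p = 0.000628 by edgeR).

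The subunits were compared by module with OD, and their difference from the NDUFAF factors was not tested. The N module had 8 of 9 tested members lower (88.9%, median -0.27) and the Q module 5 of 6 (83.3%, median -0.36). The proximal arm had 5 of 9 (55.6%, median -0.35) and the distal arm 8 of 12 (66.7%, median -0.38). Of all tested genes 33.3% were lower, and the module counts were equal under all 3 scalings. NDUFC1, an accessory subunit of the proximal arm, had 29.9, 32.4 and 31.9 CPM in control cells, 19.3, 18.9 and 21.3 CPM with CoCl2, and 19.3, 17.6 and 19.3 CPM with OD. Its control libraries lay above all treated ones, and its log2 fold change with OD was -0.75 (SE 0.070, adjusted p = 9.26e-15 by edgeR). NDUFB1 and NDUFS6 followed with -0.73 and -0.71. NDUFV1, NDUFV3 and NDUFS7, all called with CoCl2, fell by 0.42, 0.40 and 0.41 on the log2 scale with OD.

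NDUFA8, a subunit of the proximal arm on the intermembrane side, was the other member higher with OD. It had 45.6, 38.9 and 45.7 CPM in control cells, 40.4, 40.5 and 41.6 CPM with CoCl2, and 52.6, 50.4 and 49.95 CPM with OD, and its OD libraries lay above all others (log2 fold change 0.24, SE 0.058, adjusted p = 0.000297 by edgeR). NDUFA1, NDUFA4, NDUFA9, NDUFA10, NDUFA13, NDUFAB1, NDUFB5, NDUFB8, NDUFB11 and NDUFV2 did not pass with OD, with values between -0.084 and 0.097.

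Some members had opposite signs with the 2 treatments, whose comparisons use the same control libraries and are not independent. NDUFB9 had log2 fold changes of 1.24 with CoCl2 and -0.37 with OD, and NDUFAF6 had -1.14 and 0.30. NDUFS5 had 0.33 and -0.48 and NDUFB7, a subunit of the distal arm, had 0.16 and -0.39, but both were lower with CoCl2 when library size was the only scaling. NDUFA1 and NDUFA9 passed in neither comparison.

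The direct comparison of CoCl2 with OD, which uses the control libraries only in the common filter, scaling and estimate of spread, called 9 members. Higher with CoCl2 were 3 members (6.67%, background 17.5%), NDUFB9 with a log2 fold change of 1.62 (SE 0.050, adjusted p = 3.98e-37 by edgeR), NDUFV2 with 1.60 and NDUFA4 with 1.12. Lower with CoCl2 were 6 members (13.3%, background 23.8%), NDUFAF3 with -1.51 (SE 0.133, adjusted p = 4.78e-16 by edgeR), NDUFAF6 with -1.44, NDUFV1 with -1.27, NDUFV3 with -1.07, NDUFB1 with -1.04 and NDUFB5 with -1.003. The last 2 lay near the threshold and were not called with RLE factors. NDUFB1 also lost its call without CoCl2 replicate 3 (-0.98) or OD replicate 1 (-0.98), and NDUFB5 lost it without CoCl2 replicate 1 (-0.97) or OD replicate 3 (-0.99) and by DESeq2 (-0.997). With library size alone NDUFA4, at 0.58, was no longer called and NDUFS7, at -1.31, was called lower. NDUFA13 (0.91) and NDUFS5 (0.81) followed among the members higher with CoCl2. NDUFS5, with 117, 107 and 113 CPM in control cells, had 145, 136 and 143 CPM with CoCl2 and 83.6, 79.3 and 78.6 CPM with OD, and the 3 groups were apart.

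By the adjusted p alone, 22 members were higher with CoCl2 than with OD (48.9%, against 40.2% of all genes) and 13 were lower (28.9%, against 43.2%), with a median of 0.12 beside -0.054 for all genes. This balance turned with library size alone, where 8 were higher, 30 lower and the median was -0.42 beside -0.60 for all genes. Of all tested genes, 3776 were then higher and 9802 lower by the adjusted p. For NDUFAF8 the difference between the treatments was 0.0019 (95% interval -0.17 to 0.18) with TMM factors. It was 0.045 with RLE factors and -0.54 with library size alone, so the closeness of the pair was lost under the latter scaling.

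The transcripts of the 7 complex I subunits encoded in mitochondrial DNA, which form the proton-pumping core of the membrane arm, were higher with CoCl2 and lower with OD. They took 2.063% to 2.096% of counts in control cells, 2.37% to 2.51% with CoCl2 and 1.14% to 1.17% with OD, with no overlap. With CoCl2 all 7 were higher by the adjusted p, against 40.4% of all genes, with log2 fold changes of 0.56 to 1.07. MT-ND1 was the 1 called gene (14.3%, against 19.9%). With library size alone 5 of the 7 remained higher (0.094 to 0.56), MT-ND3 (0.071) and MT-ND5 (0.050) did not pass, none was lower, and MT-ND1 was no longer called. With OD all 7 were lower (-1.31 to -0.38), against 33.3% of all genes. The 3 called were MT-ND3 (-1.31), MT-ND5 (-1.17) and MT-ND6 (-1.15), which is 42.9% against 4.16%. The same 7 and 3 were found under each scaling. Between the treatments all 7 were called higher with CoCl2, against 17.5% of all genes, by 1.45 to 1.88 on the log2 scale. With library size alone all 7 were higher by 0.90 to 1.34, and MT-ND1 (0.90) was not called.

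Of 12 further assembly factors without the NDUF prefix, 3 were higher with CoCl2 by the adjusted p (25%, against 40.4% of all genes). Another 7 were lower (58.3%, against 42.8%), and the median of the 12 was -0.79. By both thresholds 5 were called downregulated (41.7%, against 23.4%). These were DMAC1 (-2.41), which assists the distal arm, ACAD9 (-1.96), an acyl-CoA dehydrogenase family member of the membrane arm assembly complex, NUBPL (-1.36), which delivers iron-sulfur clusters, FOXRED1 (-1.26) and TIMMDC1 (-1.03). With RLE factors 4 were called, and with library size alone 7. With OD 10 of the 12 were lower (83.3%, against 33.3% of all genes), with a median of -0.31. TMEM126B (-1.17), a partner of ACAD9, was called lower (8.33%, against 4.16%). Between the treatments, TMEM126A was called higher with CoCl2 (1.15), and DMAC1 (-1.68) and ACAD9 (-1.24) were called lower. These are 8.33% and 16.7% of the 12, against 17.5% and 23.8% of all genes. With library size alone TMEM126A had 0.60 and was not called, and 5 of the 12 were called lower.

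The nuclear subunits of complexes II to V were also mixed with CoCl2 and mostly lower with OD. Of 38 tested, 11 were higher with CoCl2 (28.9%, against 40.4% of all genes) and 21 lower (55.3%, against 42.8%). The median of the 38 was -0.24. The 3 called lower (7.89%, against 23.4%) were ATP5MC1 (-2.06) and ATP5MC3 (-1.02) of the ATP synthase ring and CYC1 (-1.05) of complex III. With library size alone 1 was higher and 34 lower. With OD 1 was higher (2.63%, against 32.3% of all genes) and 29 were lower (76.3%, against 33.3%), none of them past the fold threshold. The median with OD was -0.28. A comparison of the members with these genes was not tested.

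**Figure D4:**
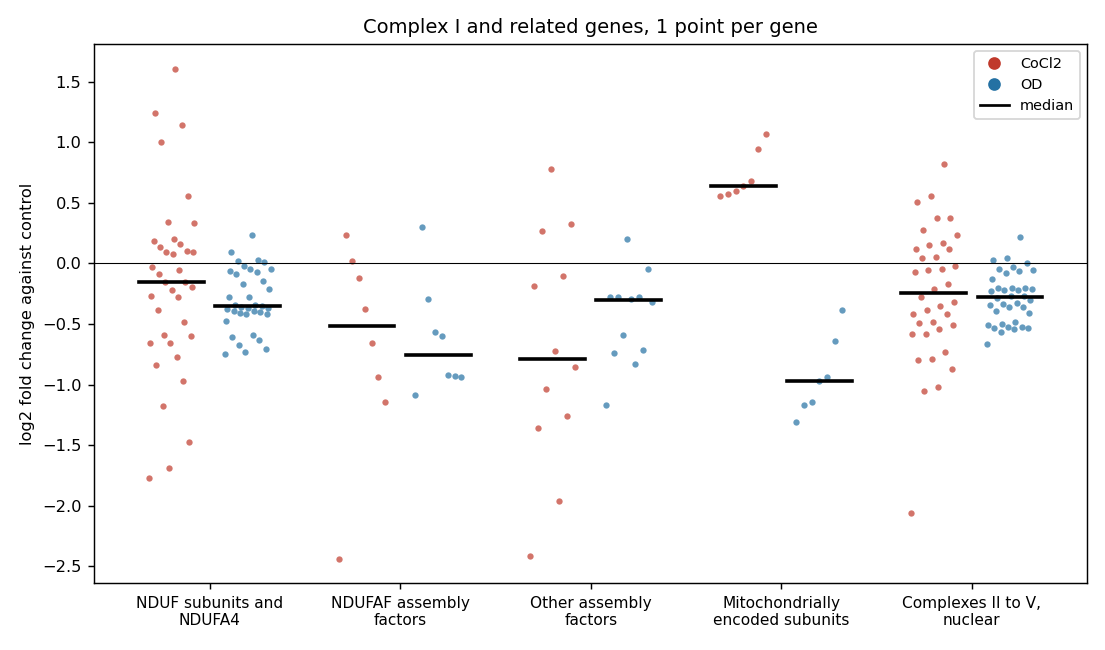
Log2 fold change against control (vertical axis) with CoCl2 (red) and OD (blue) of complex I subunits with NDUFA4, NDUFAF factors, other assembly factors, mitochondrially encoded subunits and nuclear subunits of complexes II to V, with 1 point per tested gene and a line at the median. With OD every median is below 0 (-0.97 for the mitochondrially encoded subunits), and with CoCl2 the median of these subunits is 0.64 while the other medians are below 0, signs that hold with RLE factors and with library size alone.

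Among regulators of respiratory chain genes, CoCl2 raised GABPA (1.45) and YY1 (1.18), transcription factors that bind promoters of such genes, and lowered PPARGC1B (-2.16), a coactivator of mitochondrial biogenesis. Of 10 tested regulators, 5 were higher with CoCl2 (50%, against 40.4% of all genes) and 2 lower (20%, against 42.8%). With OD none was higher, against 32.3% of all genes, and 8 were lower (80%, against 33.3%). With library size alone 4 were higher and 5 lower with CoCl2, and GABPA, then at 0.94, and YY1 were no longer called. PDK1, a kinase that inhibits pyruvate dehydrogenase, was among the genes that tie hypoxia to mitochondria. It rose by 2.39 on the log2 scale with CoCl2 and by 3.26 with OD. BNIP3, a receptor for mitophagy, rose by 3.77 and 3.98. MIR210HG, the host of a microRNA that represses iron-sulfur cluster assembly, rose by 1.38 and 2.42, and COX4I2 was at or near 0 counts. These rises were called in both treatments by edgeR, and no other of the 6 tested genes was called, while with library size alone MIR210HG was below the fold threshold with CoCl2.

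Letters bound by NRF1, GABPA and YY1 were also looked for in the same 300-base windows around the starts, on both strands. GCATGCGC of NRF1 occurred in 7 of 39 members (17.9%) and in 3.27% of all starts, AAGATGG of YY1 in 7 members (17.9%) and 6.06% of all starts, and CCGGAAG of the ETS family, to which GABPA belongs, in 6 members (15.4%) and 10.7% of all starts. Among the called members, NDUFS7 and NDUFAF4 hold the NRF1 letters, NDUFA13 and NDUFAF4 the ETS letters, and NDUFS7 the YY1 letters. Upstream of the start lie the NRF1 letters of NDUFS7, which begin 73 bases before it, and the ETS letters of NDUFA13, which begin 10 bases before it, marked in capitals.
NDUFS7, chr19:1383823-1383852, + strand: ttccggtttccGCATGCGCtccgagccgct
NDUFA13, chr19:19516195-19516224, + strand: taagtcacttccgcccgggaCCGGAAGtgt
In NDUFAF4, called with OD, the ETS letters begin 147 bases and the HIF core letters 35 bases before the start.
NDUFAF4, chr6:96898021-96898050, - strand: cgccacctcccgCCGGAAGcggccctcgtg
NDUFAF4, chr6:96897910-96897939, - strand: agggggcgacgggCACGCatttaagcgccc
These matches describe letters only, and binding was not measured.

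GC content and transcript length were looked at beside the changes of the members. Across the 45 tested members, the change with CoCl2 had a Spearman's rho of -0.20 with GC content and -0.057 with transcript length, and the change with OD had -0.094 and 0.14. Across 14136 genes with a GC value (88.7% of those tested), rho with GC content was -0.15 with CoCl2 and 0.16 with OD. These are descriptions across genes, which share libraries and are not independent. With the GC trend removed, the members' median was -0.15 with CoCl2 and -0.35 with OD.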

How the data were processed

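Messenger RNA was measured in 9 uCaco-2 libraries, 3 each for control, CoCl2 and OD. Groups came from the labels. Libraries of differentiated cells were not analysed here.

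The authors checked reads with FastQC 0.11.9, trimmed them with cutadapt 2.10, mapped the 75-nucleotide single-end reads to GRCh38.p13 with STAR 2.7.5b and counted them on GENCODE release 34. The deposited values are raw counts per gene symbol, without normalization, and 0 sample columns were left unused. The counting tool, its strand setting and its treatment of reads that fit several genes are not given in the sources used here.

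From the counts, edgeR 4.0.16 (R 4.3.3) computed TMM factors, applied its expression filter (15944 genes kept) and fitted a robust quasi-likelihood model over all 9 libraries with 1 mean per group. Benjamini-Hochberg adjustment ran over all tested genes in each of 3 comparisons. Genes were called where the adjusted p was below 0.05 and the size of the log2 fold change exceeded 1, the thresholds the authors stated. CPM are TMM-scaled, and SE is the fitted log2 fold change divided by the square root of its F value. Coordinates and lengths came from GENCODE 44 on GRCh38, matched by symbol for all 47 members. Starts and sequences came from RefSeq (GRCh38.p14), matched by symbol for 39 members, with the start listed at the top for each gene. Between 15998136 and 24209427 counts per library gave the tested members SEs of 0.042 to 0.202 on the log2 scale. Intervals on counts take in counting error only, as the protocol names no molecular identifiers and PCR copies remain.

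Alternatives were no count filter, a stricter filter of 10 counts in each library, RLE factors, scaling by library size alone, the 6 libraries of each comparison alone, DESeq2 1.42.0, glmTreat, the replicate number as a block, and each library left out. Removal of a GC trend by loess (span 0.3) was chosen after seeing the data. The fits were tested on simulated data. The members and gene lists were chosen with earlier results of these data known. Full statistics go to NDUFA4, NDUFA4L2, members called in any comparison, and the 5 largest rises and 5 largest falls per comparison among members with an adjusted p under 0.05 and libraries that do not overlap. Genes of other lists are named where called, and NDUFA7, VIL1, the markers of other cell types and the remaining members were added for completeness. The values of 1 member are not reported here, although it is included in all counts and medians.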

Additional observations from a re-analysis of the deposited data

How the results depend on the processing

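The calls of single members held in most settings, apart from that of NDUFA13 with CoCl2, described above. Across the 9 fits that leave out 1 library, 3 to 4 members were called higher and 6 lower with CoCl2, 0 higher and 1 to 2 lower with OD (NDUFAF3 was added without OD replicate 2), and 3 to 4 higher and 5 to 6 lower between CoCl2 and OD. The members' median log2 fold change ran from -0.20 to -0.12 with CoCl2, from -0.39 to -0.34 with OD, and from 0.11 to 0.16 between CoCl2 and OD. Values near 0 changed sign in these fits: with OD NDUFA13 had -0.0094 to 0.21, NDUFA4 -0.034 to 0.077 and NDUFV2 -0.059 to 0.090, and NDUFAF8 had -0.052 to 0.053 between CoCl2 and OD.

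Library size alone shifted the median of all genes to -0.55 with CoCl2 and to -0.60 between CoCl2 and OD, and with OD it left the counts of members unchanged. With CoCl2 1 member was called higher and 15 lower, beside 1833 and 5839 of all tested genes. By the adjusted p 4 members were higher and 40 lower, beside 4134 and 9398 of all tested genes. The members' median was -0.66, and NDUFS5 turned to -0.17. With OD the median was -0.33. Between CoCl2 and OD 8 were higher and 30 lower by the adjusted p, beside 3776 and 9802 of all tested genes. The members' median turned to -0.42, and NDUFAF2 (-0.29), NDUFAF8 (-0.54) and NDUFC1 (-0.46) changed sign. RLE factors gave medians of -0.10 with CoCl2 and 0.17 between CoCl2 and OD. Without a count filter, which adds NDUFA4L2 and NDUFA7, the medians were -0.21 with CoCl2 and 0.057 between CoCl2 and OD, NDUFA4L2 became the 1 member called higher with OD, and NDUFAF8 had -0.063 between CoCl2 and OD. With at least 10 counts in every library, this median was 0.069 and NDUFAF8 had -0.052, and on the 6 libraries alone NDUFAF8 had -0.00294. By glmTreat 0 members were called lower with OD (1 by edgeR's test and by DESeq2) and 3 between CoCl2 and OD. With the GC trend removed, the median between CoCl2 and OD was 0.27, NDUFA13 had -0.069 with OD, and NDUFAF2 had -0.024 between CoCl2 and OD. The causes of these moves were not tested, apart from the scaling and the added genes.

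With the replicate number as a block, the 10, 1 and 9 called members of the 3 comparisons were the same as without it, and NDUFAF8 had -0.00300 between CoCl2 and OD. Same-numbered libraries had correlations of -0.0049 to 0.038 between their deviations from the group means, so the numbers were not taken to pair the samples. NDUFA7 and NDUFA4L2, with 2 to 12 counts per library, are limited by depth.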
